A study of Homo sapiens with 9 samples.

Results

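LIN28A, LIN28B, TRIM71, HMGA1, HMGA2, IGF2BP1, IGF2BP2 and IGF2BP3 encode proteins of early development. Genes that are silenced in most adult tissues and reappear in tumours are called oncofetal. The name is used here for all 8, although IGF2BP2 stays on in many adult tissues. The 8 genes were taken by symbol from the 46427 genes of the count table, and all 8 passed the filter on low counts that left 20685 genes for testing. They were chosen by name and not by their values, although earlier results of these data were known.

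RNA sequencing had been done on the established embryonic stem cell line H9 and on cells derived from it, in 3 groups of 3 libraries, in a study of autophagy in neuronal differentiation. BafA1 NPC were neural progenitor cells (NPC) at day 11 of differentiation that had been given bafilomycin A1 (BafA1) at 10 nM for 6 h, a drug that blocks the vacuolar proton pump and with it lysosomal acidification and the clearance of autophagosomes. Control NPC were day 11 cells without BafA1, and hESC were undifferentiated, untreated human embryonic stem cells. Both NPC groups had received 2 receptor blockers, of BMP (LDN193189, 200 nM) and of TGF-beta (SB431542, 10 µM), and 2 activators, of the Hedgehog pathway (purmorphamine, 2 µM) and of the WNT pathway (CHIR99021, 3 µM). The protocols name several windows of days for BafA1, and the sources used here do not say which of them the sequenced cells had. All libraries came from 1 cell line.

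The 8 genes surround the let-7 family of microRNAs, small RNAs that pair through their seed with sites in the 3′ untranslated region (3′ UTR) of messenger RNAs and lower their stability and translation. LIN28A and LIN28B bind let-7 precursors and block their maturation, and let-7 in turn represses LIN28B, TRIM71, HMGA2 and IGF2BP1, so that immature cells hold these genes high and let-7 low until differentiation reverses the balance. TRIM71 is an RNA-binding ubiquitin ligase that represses messenger RNAs in stem cells, HMGA1 and HMGA2 bend AT-rich DNA in chromatin, and the IGF2BP proteins bind and stabilise messenger RNAs, many of them carrying the m6A mark. In the developing mouse brain, LIN28 and HMGA2 are known for keeping neural progenitors dividing.

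The let-7 sequences are shown first because the seed they share defines the sites counted further on. RefSeq (GRCh38.p14) lists 12 loci of let-7 and its relative miR-98, which give 9 mature 5p names. The seed, bases 2 to 8 from the 5′ end, is in capitals, and it is GAGGUAG in all 9.
let-7a-5p: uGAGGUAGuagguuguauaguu
let-7b-5p: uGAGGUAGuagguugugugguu
let-7c-5p: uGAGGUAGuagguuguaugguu
let-7d-5p: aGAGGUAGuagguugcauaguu
let-7e-5p: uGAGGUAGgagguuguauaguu
let-7f-5p: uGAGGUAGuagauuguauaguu
let-7g-5p: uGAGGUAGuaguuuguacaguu
let-7i-5p: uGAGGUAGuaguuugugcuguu
miR-98-5p: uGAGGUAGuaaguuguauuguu

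LIN28 proteins are known to bind the terminal loop of let-7 precursors at a GGAG motif. GGAG was found after the 5p arm in 9 of the 12 hairpins and was not found there in let-7a-3, let-7b and miR-98. Of the 3 hairpins printed, in which capitals mark GGAG, let-7a-1 and let-7g hold the motif, and let-7a-3, which carries the same mature sequence as let-7a-1, holds none after its 5p arm.
let-7a-1, chr9:94175957-94176036 (+ strand): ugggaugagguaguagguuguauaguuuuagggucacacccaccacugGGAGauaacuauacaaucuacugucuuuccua
let-7g, chr3:52268278-52268361 (- strand): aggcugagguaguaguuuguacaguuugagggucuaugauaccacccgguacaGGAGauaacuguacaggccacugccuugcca
let-7a-3, chr22:46112749-46112822 (+ strand): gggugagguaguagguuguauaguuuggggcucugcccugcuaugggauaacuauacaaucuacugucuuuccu

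The sites were looked for as CTACCTC, the exact match to the seed, on the transcript strand of the 3′ UTR of 1 transcript per gene (GENCODE release 29, GRCh38). It was present in 9.574% of 15344 genes with a 3′ UTR, and at least 4 times in 0.078% of them, which is 12 genes. All 8 oncofetal genes hold at least 1. They were chosen as let-7 regulators and targets, so matches among them were likely in advance. TRIM71 has 6 matches in 6015 bases, LIN28B has 4 in 4549 bases, HMGA2 has 4 in 3003 bases and IGF2BP1 has 4 in 6206 bases. LIN28A, HMGA1, IGF2BP2 and IGF2BP3 have 1 each. The first match of each gene, and 2 neighbouring ones of TRIM71 (sites 4 and 5), are printed with 11 bases on either side and the match in capitals. A match describes letters and not a site shown to be used.
LIN28A, site 1, chr1:26427352-26427380 (+ strand): agcctattgaaCTACCTCatttttgccaa
LIN28B, site 1, chr6:105078816-105078844 (+ strand): ggttgcaaagtCTACCTCatgcaagtata
TRIM71, site 1, chr3:32891972-32892000 (+ strand): ttgcttaagtcCTACCTCatctttatttt
TRIM71, site 4, chr3:32895809-32895837 (+ strand): ttgctgagtttCTACCTCacttgtggcaa
TRIM71, site 5, chr3:32895832-32895860 (+ strand): tggcaagtcatCTACCTCatgttagcatc
HMGA1, site 1, chr6:34245833-34245861 (+ strand): ctgttcacaaaCTACCTCtggacagttgt
HMGA2, site 1, chr12:65963302-65963330 (+ strand): acgttcgatttCTACCTCagcagcagttg
IGF2BP1, site 1, chr17:49051065-49051093 (+ strand): tgcgaagtaaaCTACCTCaaggtatgaag
IGF2BP2, site 1, chr3:185644210-185644238 (- strand): cacagaagaagCTACCTCaggtgttttta
IGF2BP3, site 1, chr7:23311785-23311813 (- strand): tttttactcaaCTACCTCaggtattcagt

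The level of the messenger RNA differed widely among the 8 genes. Per length, as FPKM (fragments per kilobase of transcript, scaled by sequencing depth), HMGA1 was highest in every group, at 457 ± 13.5 in BafA1 NPC, 430 ± 19.2 in control NPC and 1107 ± 24.9 in hESC (SD, n = 3). LIN28A came next, at 186 ± 20.9 FPKM in BafA1 NPC, 132 ± 13.2 FPKM in control NPC and 296 ± 39.3 FPKM in hESC. The order below them differed between the groups. In BafA1 NPC it ran from HMGA2 (58.9 FPKM) through IGF2BP2 (48.2), IGF2BP1 (36.7), IGF2BP3 (27.5) and LIN28B (17.2) to TRIM71 (16.8), and the libraries overlapped between HMGA2 and IGF2BP2, between IGF2BP2 and IGF2BP1, and between LIN28B and TRIM71. In control NPC it ran from HMGA2 (83.7 FPKM) through IGF2BP1 (46.6), IGF2BP3 (41.9), IGF2BP2 (40.7) and LIN28B (22.7) to TRIM71 (17.1), and the libraries of IGF2BP3 overlapped those of IGF2BP1 and of IGF2BP2. In hESC it ran from IGF2BP3 (65.0 FPKM) through HMGA2 (57.5), IGF2BP2 (45.7), TRIM71 (45.4) and IGF2BP1 (42.1) to LIN28B (23.1), and the libraries of IGF2BP2 overlapped those of TRIM71 and of IGF2BP1. By group mean TRIM71 was thus the lowest of the 8 in both NPC groups, though not in every BafA1 library, and LIN28B was the lowest in hESC.

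Total counts were 43124679 to 69703791 per library in BafA1 NPC, 49479733 to 56054194 in control NPC and 55706968 to 66544642 in hESC, and each of the 8 genes had at least 4101 counts in every library. Per degree of freedom, the chi-square between libraries of a group was 11.31 to 75.41, far beyond counting noise. Levels between groups are given as CPM, counts relative to the library total, scaled by TMM, so that every change is measured relative to the bulk of the other genes. In BafA1 NPC against control NPC, edgeR's quasi-likelihood test called 4309 genes higher and 4277 lower at a Benjamini-Hochberg adjusted p under 0.05. With library totals alone as the scale, the median of all genes moved to -0.12 on the log2 scale, and 3104 genes were called higher and 5681 lower. In control NPC against hESC that scale moved the median from 0.03 to 0.14 and the calls from 6816 higher and 6529 lower to 7640 higher and 5681 lower.

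The identity of the groups was checked on marker genes. The 5 pluripotency markers summed to 21.72 to 29.92 CPM in BafA1 NPC, 32.38 to 42.34 in control NPC and 4606 to 4948 in hESC, with 2 of them at 0 in every NPC library. The 6 neural progenitor markers summed to 908.6 to 1218 CPM in BafA1 NPC, 882.5 to 1074 in control NPC and 386.5 to 427.7 in hESC. The 5 mesenchyme markers summed to 1967 to 2193 CPM in BafA1 NPC, 1029 to 1752 in control NPC and 68.09 to 72.32 in hESC, so both NPC groups also held transcripts of that type. Most of that sum was COL1A1, a fibrillar collagen, at 1963 ± 130 CPM in BafA1 NPC and 1211 ± 361 CPM in control NPC. COL1A1 was the 1 of the 5 called higher in BafA1 NPC than in control NPC, and LUM and DCN, matrix proteoglycans, were called lower, at log2 fold changes of -1.67 and -3.45 (edgeR adjusted p = 3.13e-05 and 0.000262). The median of the 5 was -0.38, so the sum does not stand for the list.

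Of the 8 genes, 3 were called higher in BafA1 NPC than in control NPC, 2 were called lower and 3 did not pass. Among all tested genes 20.8% were called higher and 20.7% lower. The median log2 fold change of the 8 was -0.04, against 0.00 over all genes. In 6 of the 8 the libraries of the groups did not overlap, against 49.2% of all tested genes. In bulk samples a lower level can come from fewer cells that hold the transcript or from less of it per cell, and these cannot be told apart.

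**Figure D1:**
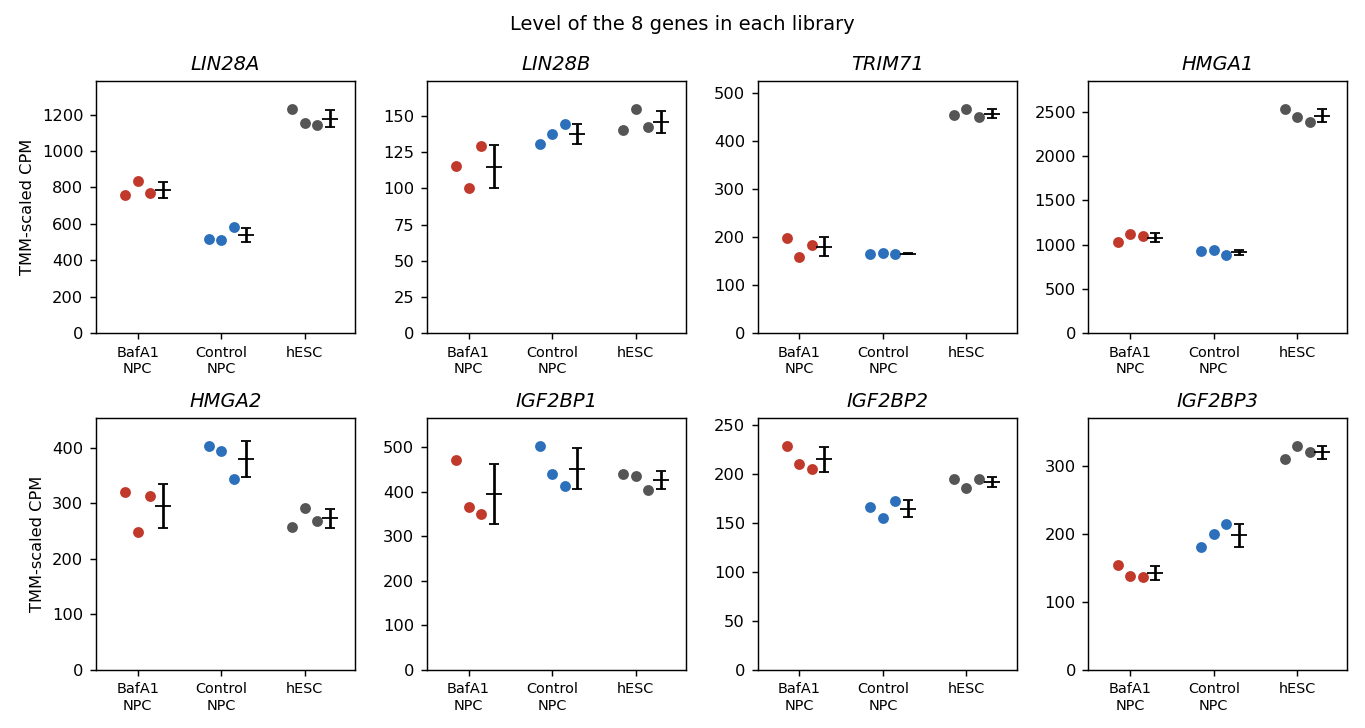
Level of each of the 8 genes in TMM-scaled CPM in every library (points) of BafA1 NPC, control NPC and hESC, with the group mean and SD (bar, n = 3); each axis starts at 0. LIN28A lies at 756 to 835 CPM in BafA1 NPC, above all control NPC libraries (513 to 580) and below all hESC libraries (1145 to 1230).

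LIN28A, the cytoplasmic LIN28 protein that recruits terminal uridylyl transferases to let-7 precursors (chromosome 1, 26410778 to 26429722), was at 756, 835 and 767 CPM in BafA1 NPC, 518, 513 and 580 CPM in control NPC, and 1230, 1154 and 1145 CPM in hESC. All BafA1 libraries stood between the control NPC and the hESC libraries. The gene was 1.46-fold higher in BafA1 NPC than in control NPC (log2 fold change 0.55, SE 0.09, edgeR adjusted p = 0.000671). It fell by 1.13 on the log2 scale in control NPC against hESC (SE 0.09, edgeR adjusted p = 5.19e-07), and by 0.58 in BafA1 NPC against hESC (SE 0.09, edgeR adjusted p = 0.000119). The call in BafA1 NPC against control NPC was kept in all 20 other fits, with an adjusted p of 7.87e-11 to 0.0298 by edgeR, DESeq2 or limma. A change of at least that size was seen in 37.4% of all tested genes.

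LIN28B, the relative that is known to hold let-7 precursors in the nucleus (chromosome 6, 104936616 to 105083332), was at 116, 99.96 and 130 CPM in BafA1 NPC, 131, 138 and 145 CPM in control NPC, and 140, 155 and 143 CPM in hESC. The BafA1 libraries lay just under the control libraries without overlap, replicate 2 being the lowest, while control NPC and hESC overlapped. The log2 fold change of LIN28B was -0.26 in BafA1 NPC against control NPC (SE 0.10, edgeR adjusted p = 0.0543), which did not pass, and 6 of 20 other fits called it. It was -0.08 in control NPC against hESC (SE 0.10, edgeR adjusted p = 0.476), but -0.50 and called with trends in GC content and length removed (edgeR adjusted p = 7.98e-05). In BafA1 NPC against hESC LIN28B passed and was 1.27-fold lower (log2 fold change -0.34, edgeR adjusted p = 0.00827). With the same trends removed its log2 fold change was -0.60 in BafA1 NPC against hESC and -0.11 in BafA1 NPC against control NPC, where it again did not pass.

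TRIM71, an RNA-binding ubiquitin ligase first known from a worm gene of developmental timing (chromosome 3, 32818018 to 32897826), was at 198, 159 and 184 CPM in BafA1 NPC, 165, 167 and 165 CPM in control NPC, and 456, 468 and 451 CPM in hESC. The 3 control libraries were nearly equal, and the BafA1 libraries lay on both sides of them. The log2 fold change was 0.12 in BafA1 NPC against control NPC (SE 0.09, edgeR adjusted p = 0.312), it was called in none of 20 other fits, and its sign turned to -0.00 with library totals alone as the scale. TRIM71 was 2.76-fold lower in control NPC than in hESC (log2 fold change -1.47, SE 0.09, edgeR adjusted p = 5.45e-08), and 2.54-fold lower in BafA1 NPC than in hESC (edgeR adjusted p = 9.53e-08).

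HMGA1, an architectural chromatin protein with AT-hook motifs that is abundant in embryonic cells (chromosome 6, 34236873 to 34246231), was at 1028, 1119 and 1095 CPM in BafA1 NPC, 930, 934 and 881 CPM in control NPC, and 2534, 2447 and 2393 CPM in hESC. The lowest BafA1 library was above the highest control library, and the hESC libraries were far above both. The rise in BafA1 NPC was small (log2 fold change 0.24, SE 0.09, edgeR adjusted p = 0.0422). It passed in only 3 of 20 other fits, and its sign turned to -0.03 once trends with GC content and length were removed. HMGA1 was 2.69-fold lower in control NPC than in hESC (log2 fold change -1.43, SE 0.09, edgeR adjusted p = 4.44e-08), a log2 fold change that was -0.89 and still called with those trends removed (edgeR adjusted p = 6.49e-07). Processed copies of HMGA1 with rows of their own held 0.812% to 1.68% as many counts as HMGA1.

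HMGA2, the second AT-hook protein and a well known let-7 target (chromosome 12, 65824131 to 65966295), was at 321, 249 and 314 CPM in BafA1 NPC, 404, 395 and 344 CPM in control NPC, and 258, 292 and 269 CPM in hESC. Control NPC held the highest libraries, and the BafA1 libraries overlapped those of hESC. HMGA2 fell by 0.37 on the log2 scale in BafA1 NPC against control NPC (SE 0.11, edgeR adjusted p = 0.0206). The call was kept in 15 of 20 other fits and lost without BafA1 NPC replicate 2 (adjusted p = 0.0683), without control NPC replicate 1 (0.0677), without control NPC replicate 2 (0.0734) and with GC and length trends removed (0.0567 by edgeR, at a log2 fold change of -0.24). HMGA2 was the only one of the 8 called higher in control NPC than in hESC (log2 fold change 0.48, SE 0.11, edgeR adjusted p = 0.00254). That change was 0.05 with GC and length trends removed and no longer passed.

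IGF2BP1, an RNA-binding protein that protects MYC and other messenger RNAs from decay (chromosome 17, 48997412 to 49055650), was at 473, 366 and 349 CPM in BafA1 NPC, 504, 440 and 414 CPM in control NPC, and 440, 436 and 403 CPM in hESC. The groups overlapped, and BafA1 NPC replicate 1 stood above the other BafA1 libraries. Its log2 fold change was -0.19 in BafA1 NPC against control NPC (SE 0.12, edgeR adjusted p = 0.228) and 0.09 in control NPC against hESC (SE 0.12, edgeR adjusted p = 0.559). Leaving out libraries, its log2 fold change in BafA1 NPC against control NPC ran from -0.33 without BafA1 NPC replicate 1, the leave-one-out fit that passed (edgeR adjusted p = 0.0189), to -0.11 without BafA1 NPC replicate 3 (0.548) or control NPC replicate 1 (0.551).

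IGF2BP2, the member of the family that stays on in many adult tissues (chromosome 3, 185643739 to 185825056), was at 229, 210 and 206 CPM in BafA1 NPC, 167, 155 and 172 CPM in control NPC, and 195, 186 and 195 CPM in hESC. The BafA1 libraries were all above the hESC libraries, and these were all above the control libraries. IGF2BP2 rose by 1.31-fold in BafA1 NPC against control NPC (log2 fold change 0.38, SE 0.08, edgeR adjusted p = 0.00273), and all 20 other fits called it, with an adjusted p of 3.59e-06 to 0.0485, the log2 fold change being 0.24 in the 3 limma fits on FPKM. It fell by 0.22 on the log2 scale in control NPC against hESC (SE 0.08, edgeR adjusted p = 0.0302), a call that 11 of 20 other fits kept and that was lost at -0.12 with library totals alone.

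IGF2BP3, the most strictly oncofetal of the IGF2BP proteins (chromosome 7, 23310209 to 23470467), was at 155, 138 and 136 CPM in BafA1 NPC, 180, 200 and 214 CPM in control NPC, and 311, 330 and 321 CPM in hESC. The libraries of the 3 groups fell into 3 separate ranges, BafA1 NPC lowest. IGF2BP3 was 1.39-fold lower in BafA1 NPC than in control NPC (log2 fold change -0.47, SE 0.09, edgeR adjusted p = 0.00167), and all 20 other fits called it, with an adjusted p of 2.53e-06 to 0.0111. It was 1.62-fold lower in control NPC than in hESC (log2 fold change -0.70, SE 0.09, edgeR adjusted p = 3.01e-05) and 2.24-fold lower in BafA1 NPC than in hESC (edgeR adjusted p = 3.13e-07).

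Differentiation itself was read from control NPC against hESC. There 1 of the 8 genes was called higher and 5 lower, with 2 not passing, against 33% of all tested genes called higher and 31.6% lower. The median log2 fold change of the 8 was -0.46, against 0.03 over all genes, and 6 of the 8 had groups without overlap, against 72.8% of all tested genes. In BafA1 NPC against hESC, 0 of the 8 were called higher and 5 lower by edgeR, against 35.5% and 34.8% of all tested genes. At an unadjusted p under 0.05 edgeR also had 0 higher, as had DESeq2 and limma after adjustment. IGF2BP2 had the smallest p among those above 0, with a log2 fold change of 0.16 (SE 0.08, edgeR adjusted p = 0.0858), and passed in 2 of 20 other fits. The 3 comparisons share libraries and are not independent of each other.

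**Figure D2:**
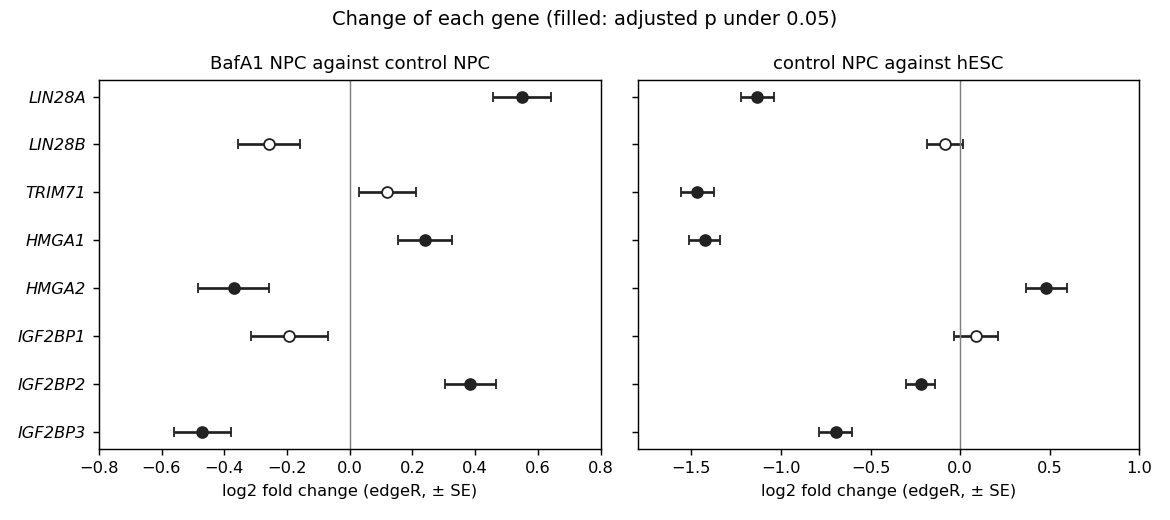
Log2 fold change of each of the 8 genes with its SE, by edgeR, in BafA1 NPC against control NPC (left) and control NPC against hESC (right); filled points had an adjusted p under 0.05, and the axes differ in range. The left values run from -0.47 (IGF2BP3) to 0.55 (LIN28A) and the right ones from -1.47 (TRIM71) to 0.48 (HMGA2); the left value of HMGA1 turns to -0.03 with GC and length trends removed, and that of TRIM71 to -0.00 with library totals alone.

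Log2 fold changes differed between members of a family. A ratio within a library describes this without regard to its scale, though not without regard to GC content and length. LIN28B made up 9.91%, 6.62% and 9.09% of the summed FPKM of the LIN28 pair in BafA1 NPC, 12.9%, 16.2% and 15.2% in control NPC, and 6.33%, 8.78% and 6.88% in hESC. The LIN28B share was thus higher in every control NPC library than in any other library. The log2 ratio of LIN28B to LIN28A was -3.43 ± 0.33 in BafA1 NPC and -2.53 ± 0.20 in control NPC, a difference of -0.90 (exact permutation test, two-sided, p = 0.1, adjusted p = 0.133 over 8 ratio tests). With 3 libraries against 3, 0.1 is the smallest p that test can give. From CPM in place of FPKM the difference was -0.82, and with GC and length trends removed it was -0.72.

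HMGA2 made up 12.8%, 9.46% and 11.9% of the summed FPKM of the HMGA pair in BafA1 NPC, 16.9%, 16.5% and 15.4% in control NPC, and 4.54%, 5.29% and 4.99% in hESC. The groups did not overlap. The log2 ratio of HMGA2 to HMGA1 was -2.97 ± 0.25 in BafA1 NPC and -2.36 ± 0.08 in control NPC, a difference of -0.61 (exact permutation p = 0.1), and control NPC differed from hESC (-4.27 ± 0.12) by 1.90 (exact permutation p = 0.1). The 2 genes lie near opposite ends of GC content, and with GC and length trends removed their fitted log2 fold changes differed by -0.21 in BafA1 NPC against control NPC and by 0.93 in control NPC against hESC. The pair's summed FPKM was 516 ± 20.4 in BafA1 NPC and 514 ± 27.1 in control NPC, against 1164 ± 21.9 in hESC. The FPKM were not scaled by TMM, so these sums are on another scale than the CPM. In TMM-scaled CPM, HMGA1 was at 1080.5 in BafA1 NPC and 914.9 in control NPC, and HMGA2 at 294.8 and 381.0.

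IGF2BP2 made up 40.9%, 44.1% and 44.2% of the summed FPKM of the 3 IGF2BP genes in BafA1 NPC, 31.3%, 30.6% and 32.6% in control NPC, and 30.7%, 28.0% and 31.0% in hESC. It was the largest share in every BafA1 library. IGF2BP3 held 24.5 ± 0.616% in BafA1 NPC, 32.5 ± 2.92% in control NPC and 42.6 ± 1.38% in hESC, where it was the largest. The log2 ratio of IGF2BP2 to IGF2BP1 was 0.41 ± 0.17 in BafA1 NPC and -0.19 ± 0.17 in control NPC, a difference of 0.59 (exact permutation p = 0.1). The log2 ratio of IGF2BP3 to IGF2BP1 differed by -0.26 between the same groups, with overlap (exact permutation p = 0.3), and by -0.14 with GC and length trends removed.

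**Figure D3:**
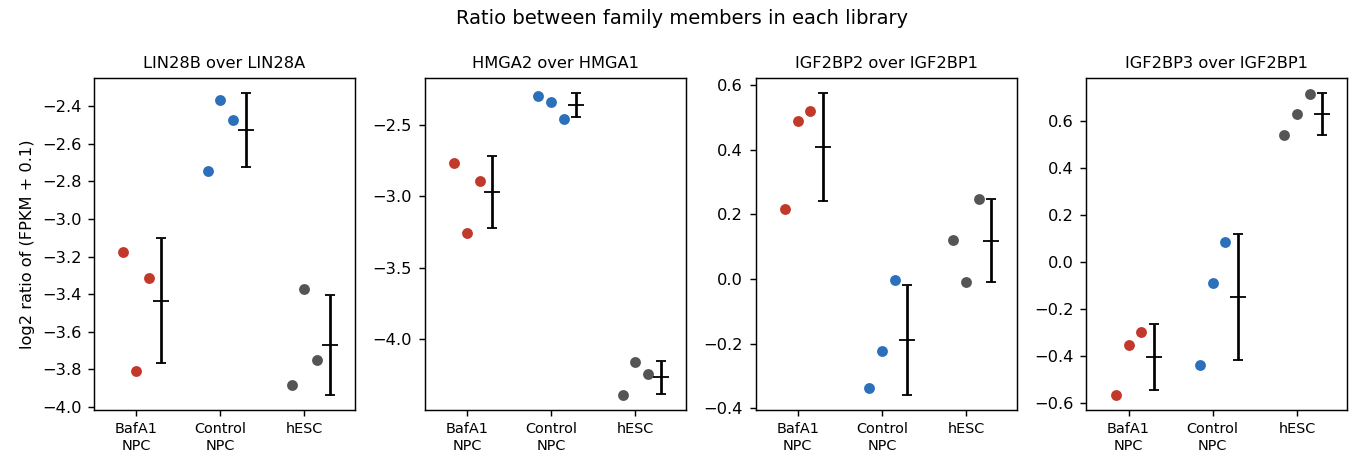
Log2 ratio of FPKM (with 0.1 added) between members of a family in each library (points), with group mean and SD (n = 3), in BafA1 NPC, control NPC and hESC. The axes differ and do not start at 0: the ratio of LIN28B to LIN28A is higher in control NPC (mean -2.53) than in BafA1 NPC (-3.43) and hESC (-3.67), and that of IGF2BP2 to IGF2BP1 is above 0 in all BafA1 NPC libraries.

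The FPKM of LIN28A needs care. The count of a gene divided by its FPKM reflects the length used for it, and relative to TRIM71, which has 1 listed transcript, this quantity was 0.450, 0.371 and 0.370 for LIN28A in BafA1 NPC, 0.368, 0.451 and 0.450 in control NPC, and 0.372, 0.450 and 0.372 in hESC. It took a high and a low level in every group, a spread of 22.5% of its value, against 0.207% to 5.30% for the other 6 genes. The length behind the FPKM of LIN28A thus differed between libraries of a group, which moves its FPKM and its ratios. The permutation tests and the limma fits use FPKM and share this limit. The edgeR and DESeq2 tests rest on counts. The kit kept strand, but whether the counting used it is not stated, so reads of antisense partners cannot be told apart with certainty. The row LIN28B-AS1 held 8 to 25 counts per library, HMGA2-AS1 0 to 4 and IGF2BP2-AS1 0 in all 9.

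Sequence features beside the changes are descriptions over 8 genes. With 4 or more let-7 matches, LIN28B, HMGA2 and IGF2BP1 had negative log2 fold changes in BafA1 NPC against control NPC, of which that of HMGA2 passed, and TRIM71 with its 6 matches did not pass at 0.12. With 1 match, LIN28A and IGF2BP2 rose and IGF2BP3 fell, while the rise of HMGA1 is the one that turned sign with GC and length trends removed. Over all genes scanned, the median log2 fold change was -0.04 with 4 or more matches (12 genes). It was 0.00 with 2 or 3 (151 genes), -0.06 with 1 (1306 genes) and 0.00 with none (13875 genes). The 12 genes include LIN28B, TRIM71, HMGA2 and IGF2BP1 themselves. In the same order, the median 3′ UTR length of these sets was 5692, 4943, 2574 and 936 bases. Their median GC content was 48.5%, 45.8%, 47.3% and 49.2%.

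Other genes with 4 or more matches included HEMK1, HIC2, IGDCC3, LIMD2, NR6A1, SMC1A and ZBTB37. In BafA1 NPC against control NPC, LIMD2 and IGDCC3 fell by 0.64 and 0.50 on the log2 scale (edgeR adjusted p = 0.0021 and 0.00162). ZBTB37, HEMK1 and SMC1A, at log2 fold changes of 0.47, 0.23 and -0.36, also passed and were called in 12, 6 and 17 of 20 other fits. HIC2 and NR6A1, a nuclear receptor of germ and stem cells, were both at 0.21 and did not pass. Of these 7 genes, ZBTB37 and HEMK1 rose and LIMD2, IGDCC3 and SMC1A fell.

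GC content of the longest transcript was lowest in LIN28B (38.1%), HMGA2 (38.8%) and IGF2BP3 (40.5%), at percentiles 7.87, 10.3 and 16.9 of the tested genes, and all 3 had lower levels in BafA1 NPC than in control NPC without overlap between the libraries. HMGA1 was highest (61.3%, percentile 88.9), and the other 4 lay between 47.4% and 49.6%, near the median of 49.0%. With trends in GC content and length removed, 3 of the 8 genes were called in BafA1 NPC against control NPC: LIN28A at 0.61 (edgeR adjusted p = 0.000151), IGF2BP2 at 0.44 (0.000369) and IGF2BP3 at -0.32 (0.00499). In control NPC against hESC the same step turned LIN28B from -0.08 to -0.50, which passed (edgeR adjusted p = 7.98e-05), and HMGA2 from 0.48 to 0.05.

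**Figure D4:**
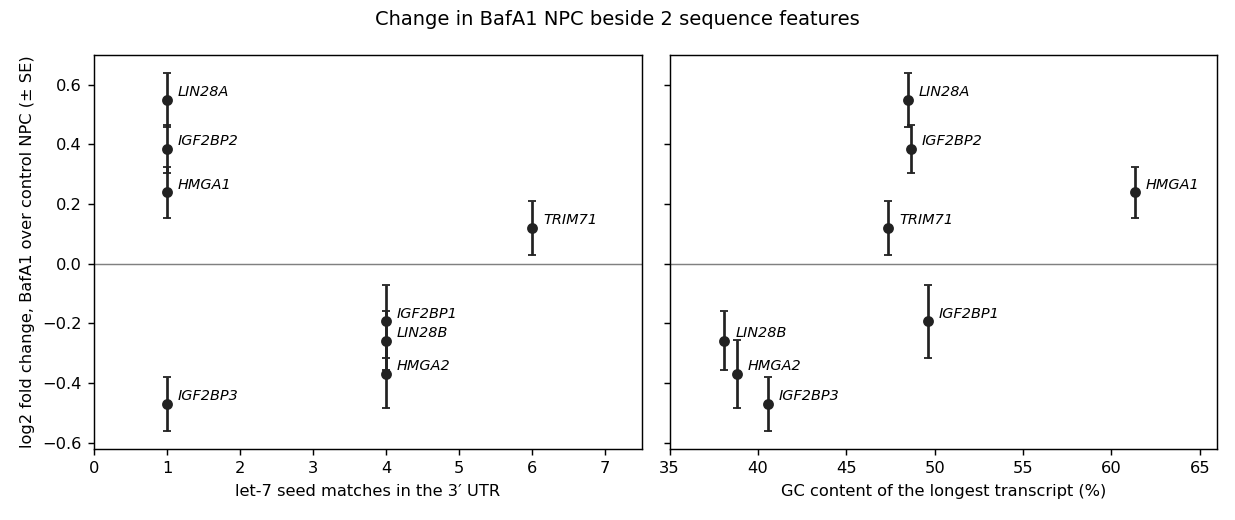
Log2 fold change with SE (edgeR, BafA1 NPC over control NPC) of the 8 genes against the number of let-7 seed matches in the 3′ UTR (left) and the GC content of the longest transcript (right). The 3 genes under 41% GC, LIN28B, HMGA2 and IGF2BP3, lie below 0, and HMGA1 at 61.3% GC lies above 0 only until GC and length trends are removed, when its value is -0.03.

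The libraries hold messenger RNA and do not measure mature let-7. Rows of 11 let-7 loci summed to 14 to 27 counts per library in BafA1 NPC, 37 to 41 in control NPC and 37 to 45 in hESC. Of 8 listed host transcripts of let-7 loci 5 were matched in the table and 4 were tested. In BafA1 NPC against control NPC 1 of the 4 rose and 1 fell. Over all tested genes 20.8% were called higher and 20.7% lower, so this count is near those shares. MIR100HG, which hosts let-7a-2, was at 16.5 ± 1.01 CPM in BafA1 NPC and 8.16 ± 1.05 CPM in control NPC (log2 fold change 1.02, edgeR adjusted p = 0.000541), against 0.769 ± 0.210 CPM in hESC. WDR82, whose locus holds let-7g, fell by 0.55 on the log2 scale in BafA1 NPC (edgeR adjusted p = 0.00194).

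Of 20 genes of let-7 processing and turnover, 0 rose and 3 fell in BafA1 NPC against control NPC by edgeR, with a median log2 fold change of -0.15 against 0.00 over all genes, of which 20.8% were called higher and 20.7% lower. At an unadjusted p under 0.05 edgeR had 1 higher, and DESeq2 and limma called 0 higher. DGCR8, the RNA-binding partner of the nuclear nuclease DROSHA, fell to 26.8 ± 4.46 CPM in BafA1 NPC, against 60.0 ± 7.41 CPM in control NPC (log2 fold change -1.17, SE 0.13, edgeR adjusted p = 6.5e-05). On the log2 scale AGO1, a carrier of mature microRNAs, fell by 0.53 (edgeR adjusted p = 0.00559), and TNRC6A, the scaffold that links Argonaute to decay factors, by 0.49 (0.00186). DROSHA, the nuclease DICER1, the uridylyl transferase TUT4 and DIS3L2, which degrades uridylated precursors, did not pass. Their log2 fold changes were -0.24, -0.23, 0.13 and 0.20 (edgeR adjusted p = 0.0516, 0.108, 0.21 and 0.0967). Of 20 other fits, 7 called DROSHA, 3 called DICER1, 2 called TUT4 and 0 called DIS3L2. The falls of the 3 called genes were kept in all 20 other fits, and the count of the list reached 9 with library totals alone (0 higher, 9 lower) and 9 with GC and length trends removed (4 higher, 5 lower). In control NPC against hESC 7 of the 20 rose and 8 fell, against 33% and 31.6% of all tested genes, among them TUT4 at a log2 fold change of 0.61 (edgeR adjusted p = 3.29e-05) and DROSHA at -0.48 (0.000554).

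Of 30 other predicted or tested let-7 targets, 7 rose and 10 fell in BafA1 NPC against control NPC, with a median log2 fold change of 0.02, against 20.8% called higher, 20.7% lower and a median of 0.00 over all tested genes. MYC, the growth-promoting transcription factor, was at 26.9 ± 3.15 CPM in BafA1 NPC and 5.79 ± 1.20 CPM in control NPC (log2 fold change 2.21, SE 0.14, edgeR adjusted p = 4.68e-06), against 72.4 ± 3.38 CPM in hESC. The proliferation genes RRM2, CDC25A and the chromatin remodeller SMARCAD1 fell by 1.20, 1.11 and 0.92 on the log2 scale. MYCN, the form of MYC typical of neural progenitors, had a log2 fold change of 0.23 and did not pass (edgeR adjusted p = 0.172).

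Of 13 messenger RNAs known to be bound by IGF2BP proteins, 4 rose and 6 fell in BafA1 NPC against control NPC, with a median log2 fold change of -0.33. Over all tested genes 20.8% were called higher and 20.7% lower, and the median was 0.00. LIN28B and HMGA2 are on this list, and so is MYC. IGF2, the fetal growth factor after whose message the IGF2BP family is named, was at 57.5 ± 3.73 CPM in BafA1 NPC and 13.7 ± 2.10 CPM in control NPC (log2 fold change 2.07, SE 0.18, edgeR adjusted p = 1.61e-05), against 1.149 ± 0.462 CPM in hESC. MAPK4 and the proliferation marker MKI67 fell by 1.21 and 0.80 on the log2 scale. Of 16 genes that write, erase or read the m6A mark, 1 rose and 11 fell, with a median log2 fold change of -0.35, beside the same shares and median over all tested genes. The one that rose was the eraser ALKBH5, by 0.88 on the log2 scale (edgeR adjusted p = 7.37e-05), and the 3 largest falls were those of HNRNPA2B1 (-0.64) and YTHDF2 (-0.57), both readers, and WTAP (-0.52), of the writer complex. Between 8 and 12 of the 16 were lower with GC and length trends removed, without any 1 library or with library totals alone.

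Of 12 other oncofetal genes, 5 rose and 1 fell in BafA1 NPC against control NPC, and 8 rose and 3 fell in control NPC against hESC. Of all tested genes, 20.8% were called higher and 20.7% lower in BafA1 NPC against control NPC, and 33% higher and 31.6% lower in control NPC against hESC. The median log2 fold changes of the 12 were 0.38 and 1.25, against 0.00 and 0.03 over all genes. The imprinted RNA H19 was at 83.1 ± 10.6 CPM in BafA1 NPC and 11.5 ± 2.00 CPM in control NPC (log2 fold change 2.86, SE 0.16, edgeR adjusted p = 2.97e-06), against 4.76 ± 0.852 CPM in hESC. CRABP2, a carrier of retinoic acid, rose by 1.22 on the log2 scale, and PLAG1, a transcription factor of fetal growth, by 0.54. The call of PLAG1 was kept in 14 of 20 other fits. Of 20 genes of related proteins, 5 rose and 5 fell in BafA1 NPC against control NPC, which is near those shares. That count depended on single libraries: without 1 library, 4 to 9 of the 20 were called higher and 5 lower. Among the high-mobility-group genes outside the HMGA pair HMGB3, HMGB1 and HMGN2 fell by 1.18, 1.06 and 0.82 on the log2 scale, and YBX3, a cold-shock-domain protein like LIN28, rose by 1.00 (edgeR adjusted p = 5.35e-05).

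**Figure D5:**
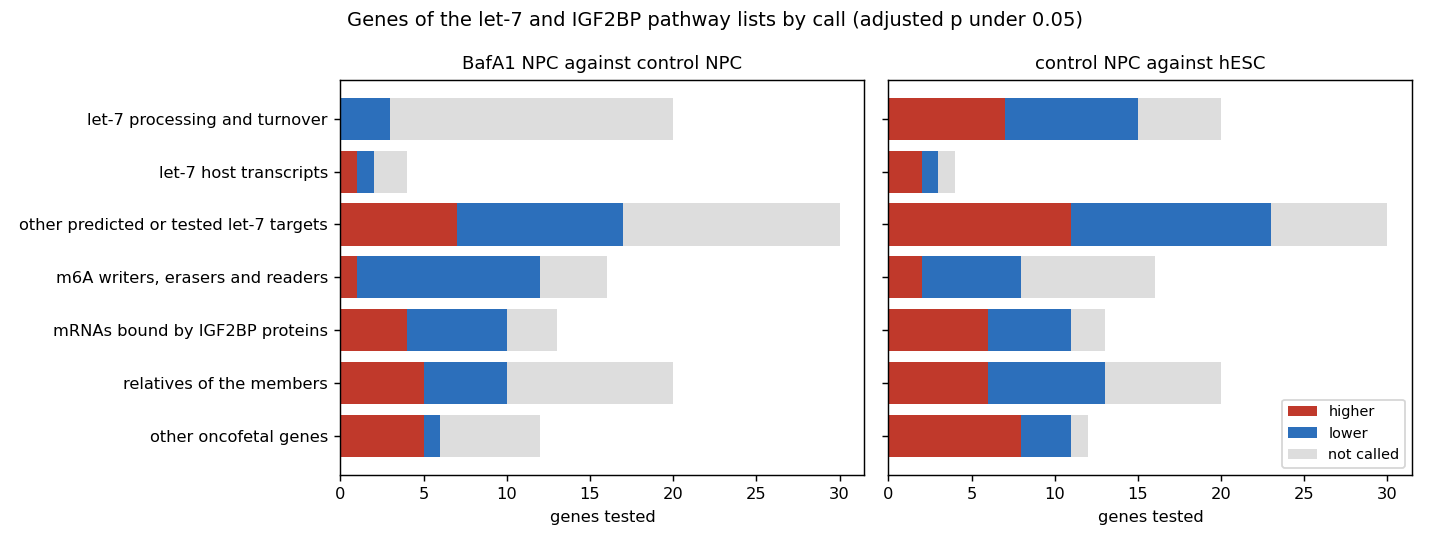
Number of tested genes called higher, called lower and not called (edgeR, adjusted p under 0.05) in each list of genes around the 8, in BafA1 NPC against control NPC (left) and control NPC against hESC (right). In the left panel 11 of 16 m6A genes are lower and 5 of 12 other oncofetal genes are higher. Of all tested genes 20.8% are called higher and 20.7% lower there. The 3 lower of 20 let-7 processing genes become 9 with library totals alone.

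Other marker lists differed between the NPC groups beside these values. Hypoxia-response markers summed to 5306 to 7104 CPM in BafA1 NPC and 1504 to 1743 CPM in control NPC, with 5 of 5 called higher. Proliferation markers summed to 998.2 to 1059 CPM in BafA1 NPC and 1523 to 1590 CPM in control NPC, with 4 of 5 called lower. Over all tested genes 20.8% were called higher and 20.7% lower. Neuron markers summed to 309.2 to 345.5 CPM in BafA1 NPC and 295.3 to 355.4 CPM in control NPC. Neural crest markers summed to 56.01 to 71.88 CPM in BafA1 NPC and 50.19 to 85.69 CPM in control NPC, with 1 to 3 of the 4 at 0 in a library. The part of oxygen response, proliferation or cell composition in the changes of the 8 genes was not tested.

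The genes with the nearest profiles over the 9 libraries were found among 15699 protein-coding genes by the distance between centred log2 CPM. For LIN28A they were DTNB and KDSR (distances 0.243 and 0.265), and DTNB averaged 24.7 CPM in BafA1 NPC, 15.3 in control NPC and 37.1 in hESC. For LIN28B they were HAUS6 and SLC30A9, for TRIM71 WDR44 and SERPINA11, and for HMGA1 SMARCD2 and NPIPA2, at 0.109 and 0.170. For HMGA2 they were REEP3 and CNOT6, for IGF2BP1 VAPB and SH3PXD2A, for IGF2BP2 RNF122 and KSR1, and AQR was among those of IGF2BP3. All distances were 0.109 to 0.265, and none of the 8 genes was among the 2 nearest of another. SERPINA11 reached at most 0.997 CPM in its highest group, so its profile rests on few counts. The 9 libraries form only 3 groups, so a near profile says that the group means line up.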

How the data were processed

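Total RNA of 9 libraries was made into stranded mRNA libraries and sequenced, per the labels' protocols. The submitters' processing notes name Trimmomatic and the build GRCh38. Which aligner and counter were run is not given in the sources used. The authors deposited raw read counts as whole numbers and FPKM per gene and library, per the file headers. The columns named as control were taken for untreated NPC, the only group left, and 0 columns of other samples were present.

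Counts were tested with edgeR 4.0.16 in R 4.3.3 (filterByExpr, TMM, quasi-likelihood, 1 term per group over all 9 libraries, two-sided). Benjamini-Hochberg adjustment ran over all 20685 genes, and a gene was called at an adjusted p under 0.05. The SE was taken from the fold change and its F statistic. The script was tested on simulated data. The labels call replicates biological but do not say that they came from separate cultures, so p-values measure the spread between these libraries. Other fits (20 per comparison) changed the scaling, the filter or the tool (DESeq2 1.42.0, limma 3.58.1 on log2 FPKM plus 1 or 0.1, with and without a filter at 0.5 FPKM in 3 libraries), took only the libraries compared, added a replicate block, removed GC and length trends, or left out each library. Ratios between genes used log2 of FPKM plus 0.1 with exact permutation tests.

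The let-7 sequences are from RefSeq (GRCh38.p14). Gene coordinates, 1-based, and 3′ UTRs are from GENCODE release 29, with the principal transcript of the longest 3′ UTR per gene. The 8 genes, the gene lists and the tests were chosen with earlier results of these data known. From each list the text names up to 4 called genes with the largest change in BafA1 NPC against control NPC and at least 1 CPM, and always DICER1, DROSHA, TUT4, DIS3L2, MYC, MYCN, IGF2 and H19. For each of the 8 genes it names the 2 with the nearest profile. Genes with 4 or more let-7 matches and 3 mesenchyme markers were named after their values were seen. Some genes that the naming rules select are not reported here.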

Additional observations from a re-analysis of the deposited data

How the results depend on the processing

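Over 20 other fits in each of 3 comparisons, 427 of 480 values of the 8 genes kept their direction and side of the threshold, 31 lost their call, 13 gained one and 9 turned sign. In BafA1 NPC against control NPC, 5 of the 8 were called, and 3 with GC and length trends removed, alone or with the replicate block; this left out the tested genes without a transcript match, since 84.5% had one. Without 1 library 3 to 6 were called, 3 without BafA1 NPC replicate 2, control NPC replicate 1 or control NPC replicate 2. HMGA1 turned to -0.0294 with GC and length trends removed (-0.0298 with the replicate block too), TRIM71 to -0.0043 with library totals alone and to -0.0342, -0.0366 and -0.0342 in the limma fits on FPKM plus 1, plus 0.1 and filtered, and TUT4 to -0.0243, -0.0260 and -0.0243 in the same 3. HMGA2 in BafA1 NPC against hESC turned to -0.1899, and DICER1 in control NPC against hESC to -0.0723, with GC and length trends removed (-0.1886 and -0.0725 with the block); LIN28B in control NPC against hESC turned to 0.0206 with library totals alone. Genes called higher in BafA1 NPC against control NPC numbered 2520, 2537 and 2686 in the 3 limma fits, against 4309. Of 20 let-7 processing genes, 3 were called, but 9 with library totals alone, 6, 6 and 8 in the limma fits, 9 with GC and length trends removed, 10 with the block added, and 3 to 8 without 1 library, 8 without BafA1 NPC replicate 1. Of 13 IGF2BP-bound messenger RNAs 7 were called in control NPC against hESC by limma on FPKM plus 0.1, against 11. For the family ratios, an alternative chosen after seeing the data took the difference of the fitted changes with GC and length trends removed. In control NPC against hESC it gave 0.6201 for LIN28B over LIN28A (1.1389 from FPKM), 0.9312 for HMGA2 over HMGA1 (1.9022) and -1.0710 for IGF2BP3 over IGF2BP1 (-0.7763), and in BafA1 NPC against control NPC -0.2060 for HMGA2 over HMGA1 (-0.6075). The cause of these shifts was not tested. With the replicate block, 8242 genes were called in BafA1 NPC against control NPC, against 8586 without it, and HMGA1 no longer passed (edgeR adjusted p = 0.0525). The numbers are not shown to pair the libraries: the deviations of 9 same-numbered pairs correlated at -0.061 to 0.149, and 8 of 18 matches were best with the own number. Depth limits the let-7 locus rows, which summed to 14 to 45 counts per library.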
